A study of Homo sapiens with 2 samples.

Results

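The genes of epithelial junctions and simple epithelial keratins were described in a human hepatoma cell line with and without M2BPGi. The group was set by gene symbol and holds E-cadherin (CDH1), the desmosome genes DSP and JUP, the tight junction genes TJP1, OCLN and CLDN1, the keratin genes KRT8, KRT18 and KRT19, and EPCAM. Of these 10 genes, 9 were found among the 16424 genes with values, and EPCAM was not analysed here. All 9 passed the filter of a mean CPM (tags scaled to the size of the library) of 1 or more, which 13724 genes passed.

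Cap analysis of gene expression (CAGE), which sequences the beginnings of capped transcripts, was applied to PLC/PRF/5 cells. M2BPGi is a glycosylated form of Mac-2 binding protein, a secreted glycoprotein used as a serum marker of liver fibrosis. There was 1 library of non-treated cells (0 µg/ml), with 24040209 tags, and 1 library of cells given 3 µg/ml M2BPGi for 6 h, with 24862941 tags. Each condition is thus 1 library of 1 cell line, differences have no replicate check, and hepatocytes in tissue were not measured. The log2 ratio and the percent difference of a single gene are on the scale of CPM plus a pseudocount of 1. Intervals of a gene or a sum are exact 95% Clopper-Pearson intervals of the log2 ratio of tags (M2BPGi-treated to non-treated), each divided by the total tags of its library. Those of a change in the ratio between genes are 95% normal approximations from the 4 tag counts. Both cover counting error only.

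Epithelial cells are held together by adherens junctions, desmosomes and tight junctions. Cadherins bind between neighbouring cells and are tied to actin by catenins, desmosomes are anchored to keratin filaments, and tight junctions seal the space between cells, which in the liver separates bile from blood. Hepatocytes contain filaments of keratins 8 and 18, whereas keratin 19 is typical of bile duct cells and is found in a part of liver cancers.

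The label of the cells was compared with marker genes. Of 14 hepatocyte and hepatoma markers, 13 had values, with a summed level of 4908 CPM in non-treated cells and 3466 CPM with M2BPGi, and FGG was the most abundant. ALB was low, at 8.82 and 7.04 CPM, while AFP had 695 and 566 CPM. The leukocyte marker PTPRC and the macrophage marker CSF1R were at 0 in both libraries, and LYZ supplied all tags of that list, with 32.1 and 29.2 CPM. Fibroblast markers summed to 5.20 and 4.18 CPM with COL3A1 as the most abundant, and 0 of 6 endothelial markers had values.

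Sequences before the starts of DSP and CLDN1 are shown because these junction genes were lower by at least 20% in M2BPGi-treated cells. They come from the promoter table of RefSeq (GRCh38.p14), which gives the 250 bases before a start and in which 6 of the 10 genes matched. CDH1, KRT18, KRT19 and EPCAM are named only. GENCODE v29 places the outermost start 96 bases before that of RefSeq for DSP, 29 bases for CLDN1 and 255 bases for OCLN, so the window of OCLN lies inside the gene and is not shown. Printed are the 154 bases of DSP on the plus strand (chr6:7541421-7541574) and the 221 bases of CLDN1 on the minus strand (chr3:190322476-190322696) that lie before both starts, 5′ to 3′ on the strand of the gene. An exon of CLDN16 lies on the opposite strand within the latter. Capitals mark matches on either strand to CACCTG, the E-box bound by the repressors SNAI1 and ZEB1, and to GGGCGG, the GC box. Overlapping matches were counted, and adjoining capitals can hold more than 1 match.
DSP: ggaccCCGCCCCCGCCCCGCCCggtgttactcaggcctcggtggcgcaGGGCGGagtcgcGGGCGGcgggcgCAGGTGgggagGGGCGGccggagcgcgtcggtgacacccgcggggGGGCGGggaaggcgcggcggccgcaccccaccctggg
CLDN1: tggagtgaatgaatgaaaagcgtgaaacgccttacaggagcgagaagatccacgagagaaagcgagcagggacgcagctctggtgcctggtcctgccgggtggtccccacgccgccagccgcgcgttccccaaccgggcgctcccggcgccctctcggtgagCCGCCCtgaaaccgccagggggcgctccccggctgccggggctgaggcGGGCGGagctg

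The printed sequence of DSP held 1 E-box, 82 bases before the GENCODE start, and 7 GC boxes. That of CLDN1 held 0 E-boxes and 2 GC boxes. In the full windows before the RefSeq starts, DSP had 2 E-boxes, as had 1 of the 2 windows of JUP. An E-box was present in 17.5% of all 35116 windows of 250 bases in the table and at least 2 of them in 2.53%, a GC box in 42.6% and the TATA box (TATAAA) in 10.7%. Over all 11 windows of DSP, JUP, TJP1, OCLN, CLDN1 and KRT8, an E-box was found in 5, a GC box in 7 and the TATA box in 0. Some of these windows lie inside the gene as GENCODE draws it, among them those of OCLN and the window of JUP that had E-boxes. In the bases before both starts, only DSP and TJP1 had an E-box. A match describes the letters and not a binding site, and the values per gene do not show which start the tags came from.

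In PLC/PRF/5 cells the partner keratins of hepatocytes, KRT18 and KRT8, were the most abundant of these transcripts. KRT18 had 1249.8 CPM in non-treated cells, rank 71 of all listed genes, and KRT8 had 835 CPM, rank 129. A tag is read from the beginning of 1 capped transcript, so levels were set side by side without a correction for transcript length. KRT18, KRT8, KRT19 and OCLN have near-identical copies, which leaves the origin of their tags uncertain. The order was KRT18, KRT8, CLDN1, KRT19, CDH1, TJP1, JUP, DSP and OCLN in both libraries. Every step in this order exceeded counting error except that from DSP to OCLN in M2BPGi-treated cells, a log2 step of 0.10 with an interval of -0.03 to 0.22.

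**Figure D1:**
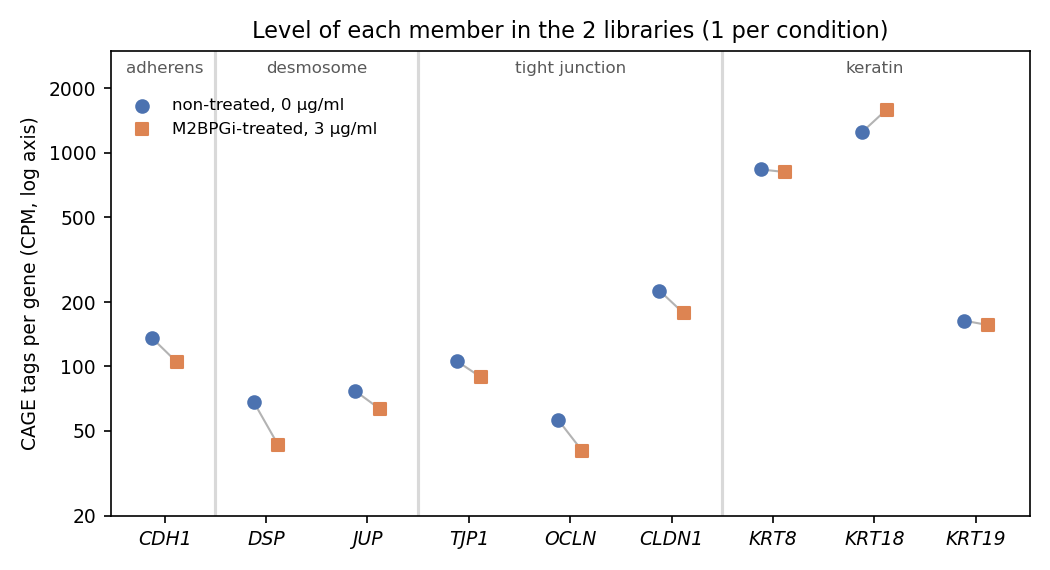
Level of each gene in CPM on a log axis, with circles for the non-treated and squares for the M2BPGi-treated library (1 library each). Each of the 6 junction genes has a lower square than circle, KRT18 has a higher one (1592 against 1249.8 CPM), and KRT8 and KRT19 lie nearly level.

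The 6 junction genes were lower in M2BPGi-treated cells, also under each scaling and length correction run, while of the 3 keratins KRT18 was higher and KRT8 and KRT19 differed little. Summed over the junction genes, the level was 668 CPM in non-treated cells and 517 CPM with M2BPGi, a log2 ratio of tags per library total of -0.37 (interval -0.40 to -0.34). The 3 keratins summed to 2248 and 2559 CPM, with a log2 ratio of 0.19 (interval 0.17 to 0.20) that was carried by KRT18, while their median log2 ratio was -0.04. In bulk RNA, fewer cells that express a gene and less RNA per cell cannot be told apart.

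By the size of the difference, 4 of the 9 genes (DSP, OCLN, CDH1 and CLDN1) were at least 20% lower in CPM with a pseudocount of 1, as were 18.4% of the 13724 genes tested. KRT18 alone was at least 25% higher, as were 9.02% of the genes. DSP was also at least 1.5-fold lower, which applied to 4.04%. The interval lay below 0 for 8 genes and above 0 for 1, against 31.5% and 22.8% of the genes tested. The 8 include KRT8, whose sign depends on the scaling, and KRT19, which is at -0.02 with the median of all genes set to 0, less than its counting error. All genes tested had a median log2 ratio of -0.05, with 57.0% of them lower. Among the 9464 genes whose mean CPM was 10 or more, a level that all 9 genes exceed, 15.6% were at least 20% lower. With the median of all genes set to 0, 1920 genes were lower and 1716 higher by this size, in place of 2532 and 1238. CDH1 and CLDN1 then fell short of it, at -0.31 and -0.30.

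**Figure D2:**
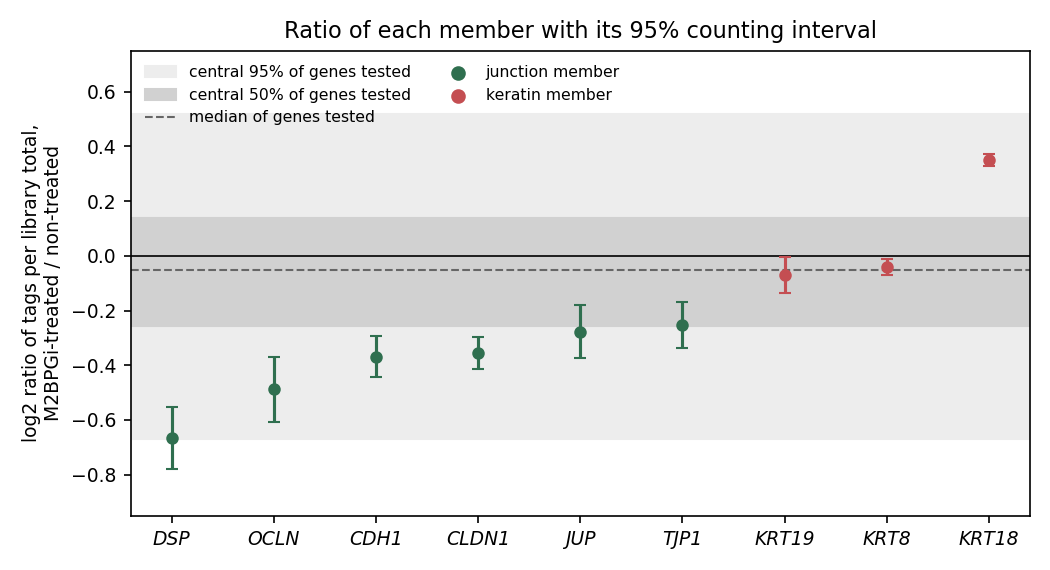
Log2 ratio of tags per library total (M2BPGi-treated to non-treated) for each gene, with bars for the 95% counting interval, over the central 50% and 95% of the log2 ratios of the 13724 genes tested (grey) and their median (dashed). DSP is the lowest at -0.67 and KRT18 the highest at 0.35, and the sign of KRT8 turns when the median of all genes is set to 0.

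CDH1 (ENSG00000039068) encodes E-cadherin, the adhesion receptor of epithelial adherens junctions. It had 135 CPM (3249 tags) in non-treated cells and 105 CPM (2602 tags) in M2BPGi-treated cells. This was 22.4% lower, a log2 ratio of -0.37 with an interval of -0.44 to -0.29. The gene lies on chromosome 16 from 68737225 to 68835548 in GENCODE v29 (GRCh38), which is not the build named for the mapping. N-cadherin (CDH2), the cadherin that hepatocytes also carry, had 149 and 112 CPM. The ratio of CDH1 to CDH2 was 0.908 in non-treated and 0.934 in M2BPGi-treated cells, and the change did not exceed counting error (log2 0.04, interval -0.06 to 0.14). Against CTNNB1, the gene of beta-catenin that binds the tail of E-cadherin, CDH1 went from a ratio of 1.11 to one of 0.752 (log2 change -0.56, interval -0.66 to -0.46). CTNNB1 itself was higher, with a log2 ratio of 0.19. The catenin genes CTNND1 and CTNNA1, named after their values were seen, were lower, as was CDH1. Their log2 ratios were -0.19 (interval -0.28 to -0.10) and -0.09 (interval -0.17 to -0.01), and CTNNA1 has a near-identical copy.

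Of 15 other adherens junction genes tested, 10 were lower and 5 higher, with a median log2 ratio of -0.19, or -0.08 less the median of genes of like transcript length. Past the size of 20% or 25% there were 4 lower genes and 1 higher gene, where 18.4% and 9.02% of all genes tested were. The 4 were LIMA1, LMO7, nectin-3 and ARVCF, the latter named after its values were seen. LIMA1, which bundles actin, had 48.4 and 32.8 CPM, and nectin-3 (listed as PVRL3) had 75.3 and 54.1 CPM. LMO7 had 26.2 and 18.6 CPM. Vinculin (VCL), which strengthens the link to actin, was the most abundant with 172.6 and 139.8 CPM, and PLEKHA7 had a log2 ratio of 0.03. CTNNB1 had 122 and 139 CPM, and AJUBA, a LIM protein at the junction, was the highest of the list with 35.6 and 54.8 CPM.

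DSP (ENSG00000096696) encodes desmoplakin, which ties the desmosome to keratin filaments. Its level was 67.9 CPM (1633 tags) in non-treated cells and 42.8 CPM (1065 tags) with M2BPGi. DSP was 36.4% lower, the lowest ratio of the 9 genes, with a log2 ratio of -0.65 and an interval of -0.78 to -0.55. This was at percentile 2.72 of the genes tested. JUP (ENSG00000173801) encodes plakoglobin, which links the desmosomal cadherins to desmoplakin and can also bind E-cadherin. JUP had 76.7 CPM (1843 tags) and 63.3 CPM (1573 tags), a log2 ratio of -0.27 (interval -0.38 to -0.18), and was 17.2% lower.

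The difference of DSP was larger than those of JUP and DSG2. The ratio of DSP to JUP was 0.886 in non-treated and 0.677 in M2BPGi-treated cells, a log2 change of -0.39 with an interval of -0.54 to -0.24. Against DSG2, the desmosomal cadherin of simple epithelia, DSP had ratios of 0.432 and 0.305, a log2 change of -0.50 (interval -0.63 to -0.37). Of 9 other desmosome genes tested, 8 were lower and 1 higher, with a median log2 ratio of -0.16, or -0.05 with the same length correction. At least 20% lower was 1 of them, where 18.4% of all genes tested were, and 0 were at least 25% higher. That gene was DSC2, a desmosomal cadherin, with 46.5 and 32.5 CPM. The log2 ratio of DSC2 was -0.50 (interval -0.65 to -0.38), nearer to that of DSP than to that of DSG2, -0.16. PERP, a membrane protein of desmosomes, was the most abundant, with 891 and 779.9 CPM. EVPL and PPL had log2 ratios of -0.29 and -0.08, and PKP4 and PKP2 of -0.01 and 0.00, where EVPL and PKP2 have near-identical copies. A gene on the opposite strand, RP3-512B11.3, starts 237 nt from DSP and had 4.95 and 4.26 CPM (interval -0.61 to 0.17).

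OCLN (ENSG00000197822) encodes occludin, a membrane protein of the tight junction. It had the lowest level of the 9 genes, 56.2 CPM (1352 tags) in non-treated cells and 40.1 CPM (997 tags) with M2BPGi. OCLN was 28.2% lower, with a log2 ratio of -0.48 and an interval of -0.61 to -0.37. A near-identical copy, OCLNP1, matches it with 99.03% identity over 413 nt, which leaves the origin of its tags uncertain.

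CLDN1 (ENSG00000163347) encodes claudin-1, which forms the seal between cells and is an entry factor for hepatitis C virus. CLDN1 was the most abundant of the 6 junction genes of the group, with 226 CPM (5439 tags) in non-treated cells and 177 CPM (4397 tags) with M2BPGi. It was 21.7% lower, with a log2 ratio of -0.35 and an interval of -0.41 to -0.30. TJP1 (ENSG00000104067) encodes ZO-1, the scaffold that ties occludin and claudins to actin. TJP1 had 106 CPM (2547 tags) and 88.9 CPM (2211 tags), a log2 ratio of -0.25 (interval -0.34 to -0.17), and was 15.9% lower. Less the median of genes of like transcript length, the log2 ratio of TJP1 was -0.12.

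Within the tight junction, OCLN differed more than its scaffold. The ratio of OCLN to TJP1 was 0.531 in non-treated and 0.451 in M2BPGi-treated cells (log2 change -0.24, interval -0.38 to -0.09). The ratio of CLDN1 to OCLN was 4.02 and 4.41, a log2 change of 0.13 (interval 0.00 to 0.26). Of 17 other tight junction genes tested, 12 were lower, 4 higher and 1 equal, with a median log2 ratio of -0.17, or -0.10 with the length correction. At least 20% lower were 6 of them, where 18.4% of all genes tested were, and 0 were at least 25% higher. LSR, which places tricellulin at the corners between cells, had 167 and 117 CPM, and tricellulin itself (MARVELD2) had 37.2 and 28.6 CPM. F11R, the adhesion molecule JAM-A, had 63.5 and 46.5 CPM. The claudin CLDN7 was the highest of this list, with 11.2 and 13.6 CPM, followed by CGNL1 and YBX3 with log2 ratios of 0.22 and 0.17. CXADR was the most abundant, with 315.5 and 244.7 CPM, and like YBX3 it has a near-identical copy.

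**Figure D3:**
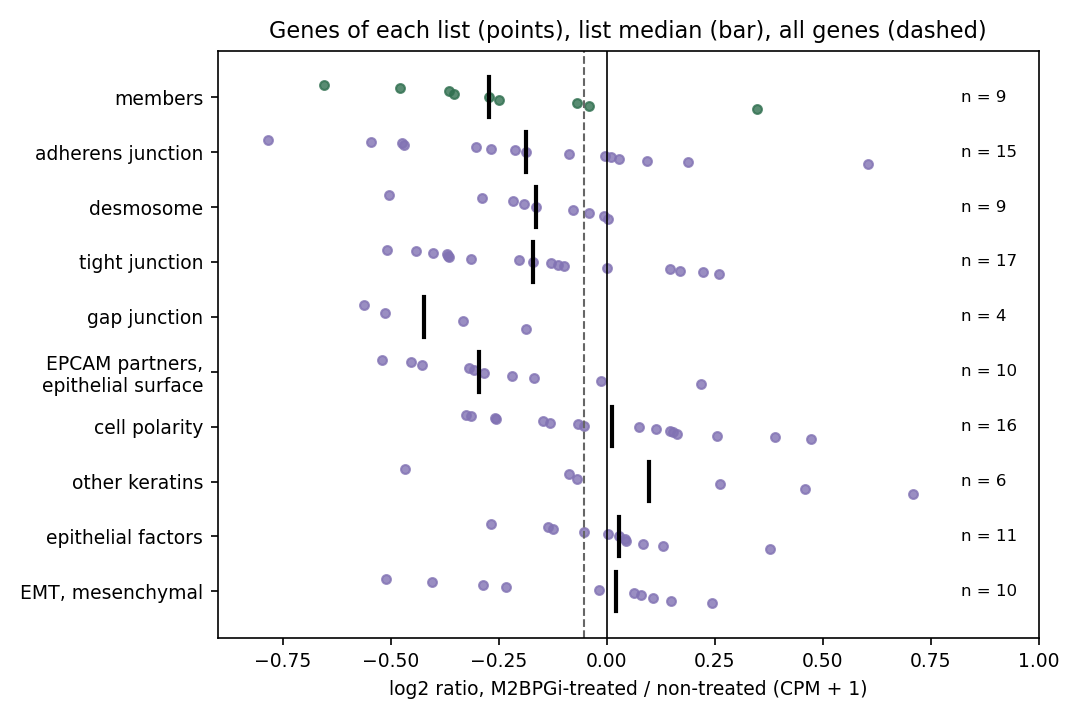
Log2 ratio of each gene tested (points) in the junction and keratin group (top, members) and in 9 lists of related genes, with list medians (bars) and the median of all genes tested (dashed, -0.05). The group has a median of -0.27, and KRT18 lies apart from its other genes at 0.35.

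KRT18 (ENSG00000111057) encodes the type I keratin that pairs with keratin 8. It had 1249.8 CPM (30045 tags) in non-treated cells and 1592 CPM (39582 tags) with M2BPGi. KRT18 was 27.4% higher, with a log2 ratio of 0.35 and an interval of 0.33 to 0.37, at percentile 92.5 of the genes tested. KRT8 (ENSG00000170421), the type II partner, had 835 CPM (20072 tags) and 811 CPM (20175 tags). Its log2 ratio was -0.04 (interval -0.07 to -0.01) as deposited and 0.01 with the median of all genes set to 0, so its direction depends on the scaling.

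The partner keratins therefore differed in ratio. KRT18 had 1.5 tags per tag of KRT8 in non-treated and 1.96 in M2BPGi-treated cells, a log2 change of 0.39 with an interval of 0.35 to 0.43. This ratio does not depend on how the libraries are scaled. KRT18 and KRT8 lie on opposite strands of chromosome 12, and their spans overlap in GENCODE v29, with outermost starts 1083 nt apart, and in RefSeq. KRT8 has other starts, and the start in the promoter table lies 22402 nt from that of KRT18. The deposited gene names carry a strand, but whether tags were counted by strand is not stated. The gain of KRT18 was 342 CPM and the loss of KRT8 was 23.5 CPM.

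Both genes have many processed copies in the genome. At least 95% identity over at least 100 nt of the transcript start was found with 16 genes elsewhere for KRT18 and with 17 for KRT8, which leaves the origin of their tags uncertain. For KRT18, the copy with a value was KRT18P64, at 0.25 and 0.16 CPM. For KRT8 it was KRT8P3, with 97.4% identity over 500 nt, at 43.3 and 40.1 CPM. Tags outside the listed genes made up 5.86% of non-treated and 5.59% of M2BPGi-treated tags. Their part in the difference of KRT18 was not tested. CDH1, DSP, JUP, TJP1 and CLDN1 had no such copy, and their median log2 ratio was -0.35.

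KRT19 (ENSG00000171345) encodes the keratin of bile duct cells. It had 164 CPM (3937 tags) in non-treated cells and 156 CPM (3879 tags) with M2BPGi, a log2 ratio of -0.07 with an interval of -0.13 to -0.01. With the median of all genes set to 0 it was -0.02, which is within counting error. Less the median of genes of like transcript length it was -0.15. KRT19 has 1 near-identical copy, KRT19P1, at 1 and 0.80 CPM. The ratio of KRT8 to KRT19 was 5.10 and 5.20, a change within counting error (log2 0.03, interval -0.04 to 0.10). KRT20, a keratin of intestinal epithelium, had 327 and 312 CPM, so its level was 2.0 times that of KRT19 in both libraries. Of 25 other keratin genes, 6 were tested, with a median log2 ratio of 0.10, and 3 were higher and 3 lower. KRT80 and KRT222 were at least 25% higher and KRT15 at least 20% lower, each below 5 CPM and named after its values were seen. Of all genes tested, 9.02% were higher and 18.4% lower by these sizes. KRT20 was the only one of these 6 whose mean CPM was 10 or more, and its log2 ratio was -0.07.

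Bile duct and progenitor markers, of which KRT19 is often counted as one, were lower in 5 of 5 genes with values, of which 2 were at least 20% lower and 3 had an interval below 0. Their summed level was 1180.4 CPM in non-treated cells and 870.3 CPM with M2BPGi, with SPP1 as the most abundant gene. The 13 hepatocyte and hepatoma markers had a median log2 ratio of -0.46, with 11 lower and 2 higher, and 8 were at least 20% lower. Among all genes tested, 57.0% were lower, 18.4% were at least 20% lower and 31.5% had an interval below 0. Both lists thus had a median below 0, as had the junction genes, and their part in the values of the junction genes was not tested.

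The ratio of a gene also went with its transcript length, as described across 13271 genes with a length (Spearman's rho -0.16, where genes are not independent of each other). Genes were put in 10 bins of length. The bin with the longest transcripts, to which DSP and TJP1 belong, had a median log2 ratio of -0.13. Less the median of its bin, DSP was at -0.52, OCLN at -0.37, CDH1 and CLDN1 at -0.28, JUP at -0.20 and TJP1 at -0.12. KRT18 was at 0.35, KRT19 at -0.15 and KRT8 at 0.01, with a change of sign for KRT8. DSP and OCLN were at least 20% lower on this scale and CDH1 and CLDN1 were not. The part of length or of RNA quality in these values was not tested.

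**Figure D4:**
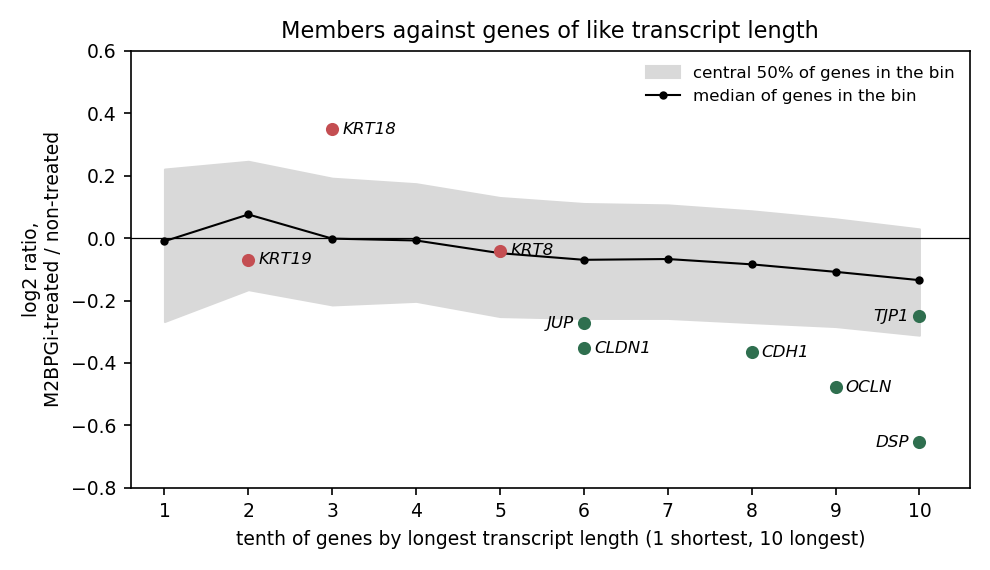
Log2 ratio (M2BPGi-treated to non-treated, CPM with a pseudocount of 1) of each gene against the bin of genes (1 to 10) by longest transcript in GENCODE v29, with the median (line) and central 50% (grey) of the genes in each bin. DSP, OCLN, CDH1, CLDN1 and JUP lie below the grey band, TJP1, KRT8 and KRT19 within it and KRT18 above it.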

How the data were processed

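CAGE libraries of non-treated and M2BPGi-treated PLC/PRF/5 cells were analysed, 1 each. The authors removed tags of ribosomal RNA or with undetermined bases, mapped what remained, clustered their 5′ ends with CAGEr and deposited CPM per gene, rounded to 2 decimals. The submitters' processing notes name BWA, HISAT2 and hg19, while the methods name a mouse genome. The gene identifiers are human. The assignment of tags to genes or to near-identical copies is not stated in the sources used here.

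Tags were read back from the CPM steps, and 100% of the values were whole within 0.005 CPM. A count of 0 allows 0.125 and 0.121 CPM. Log2 ratios used a pseudocount of 1 CPM over genes whose mean CPM was 1 or more, which understates low genes, and a fold of 1.25 was the size counted. A test of the tags of each gene was planned but not run, because the rounded CPM did not meet a stricter criterion for whole reads. No p-value was computed. Members and lists were chosen with earlier results of these data known.

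The lists hold adherens junction, desmosome, tight junction, other keratin, cell polarity, gap junction, epithelial factor, EMT and epithelial surface genes. Marker lists hold hepatocyte, fibroblast, leukocyte, endothelial and bile duct genes. Named genes are the members, their pseudogenes, and for each list other than the marker lists the most abundant gene and the 3 highest and 3 lowest whose mean CPM was 10 or more. Some genes that this rule selects are not reported here. DSG2, RP3-512B11.3, the marker genes and the genes of ratios outside this rule were chosen after their values were seen.

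Lengths and copies came from GENCODE v29, with BLAST+ 2.17.0 on the first 500 nt of each transcript (at least 95% identity over 100 nt). Python 3.11.15, numpy 2.4.6 and scipy 1.17.1 were used. The computations were tested on simulated data. Alternatives were pseudocounts of 0.1 and 5, a minimum mean CPM of 10 or no filter, folds of 1.5 and 2, scaling to a median of 0 or to listed genes, a length correction and leaving out members with a copy.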

Additional observations from a re-analysis of the deposited data

How the results depend on the processing

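No paired analysis was possible because there is 1 library per condition, and no library can be left out. Shifts were compared with the distance from the middle of the counting interval to its end. Of 45 log2 ratios of single genes of the group under an alternative, 37 moved by no more than this distance, 6 moved by more and 2 changed sign. Both were of KRT8, which became 0.011 with the median of all genes set to 0 and 0.0073 less the median of its length bin. The 4 genes at least 20% lower became 2 with the median set to 0, 2 with the length correction, 1 at 1.5-fold and 0 at 2-fold, and the 1 higher gene became 0 at 1.5-fold and 0 at 2-fold. The median of -0.27 was -0.35 without the genes that have a near-identical copy, since the 3 keratins and OCLN are left out. Over all genes, 2532 lower genes became 1476 with a pseudocount of 5, 1477 at a mean CPM of 10 or more, 554 at 1.5-fold and 59 at 2-fold. The 1238 higher genes became 775 with a pseudocount of 5, 219 at 1.5-fold and 33 at 2-fold. Ratios of low genes shrink with a larger pseudocount, fewer genes are tested with the filter, and a larger fold admits fewer genes. At a mean CPM of 10 or more, the median of the other keratins became -0.068, with KRT20 as the only gene left, and that of the EMT list -0.21, since fewer genes are tested. The other 16 of 18 list medians kept their sign. A minimum mean CPM of 10 for the group and 1 value per gene symbol were added after the data were examined. Counting error is small at these depths, while comparisons of the conditions are limited by the lack of replicates.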

Other observations

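Among all genes tested, 57.0% were lower in M2BPGi-treated cells, 18.4% at least 20% lower and 9.02% at least 25% higher. The list of gap junction genes had 4 genes tested, 3 connexins, whose channels join neighbouring cells, and the pannexin PANX1, which forms channels of a single membrane. All 4 were lower, with a median log2 ratio of -0.42, and PANX1, GJB1 and GJC1 were at least 20% lower. PANX1 had 16.97 and 11.2 CPM, and GJC1 had a log2 ratio of -0.33. GJB1, the main connexin gene of hepatocytes, had 82.3 CPM in non-treated cells and 57.4 CPM with M2BPGi, a log2 ratio of -0.51 with an interval of -0.62 to -0.42. GJA1 was the most abundant with 91.3 and 80.2 CPM, and it has a near-identical copy. Of 10 genes of proteases, partners and neighbours of EPCAM at the cell surface, 9 were lower and 1 higher, with a median of -0.30, and 3 were at least 20% lower and 0 at least 25% higher. SPINT2, a protease inhibitor, had 562 and 454 CPM, and TSPAN8, a tetraspanin, had 35.98 and 24.8 CPM. The log2 ratio was -0.45 for ADAM17, which has a near-identical copy, -0.22 for PSEN2, -0.17 for CD9 and 0.22 for FHL2. Cell polarity genes went both ways, with 8 of 16 lower and 8 higher and a median of 0.01, and 1 was at least 20% lower and 2 at least 25% higher. Among those whose mean CPM was 10 or more, the lowest were DLG1, CRB3 and LIN7C, with log2 ratios of -0.33, -0.31 and -0.15, and the highest SCRIB, PARD6A and PRKCI, with 0.47, 0.39 and 0.25, where PRKCI has a near-identical copy. PARD6B was the most abundant, with 78.2 and 82.5 CPM. Less the median of genes of like transcript length, the medians were -0.35 for the gap junction list, -0.21 for the surface genes and 0.11 for the polarity genes.

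Genes linked to the loss of epithelial traits went both ways, but none tested was higher beyond counting error. Of 10 EMT and mesenchymal genes tested, 5 were lower and 5 higher. The interval lay below 0 for 3 and above 0 for 0, against 31.5% and 22.8% of all genes tested. FN1 and CDH2 were the 2 at least 20% lower, where 18.4% of all genes were, and 0 were at least 25% higher, where 9.02% were. The median log2 ratio of the EMT list was 0.02, and 0.07 with the median of all genes set to 0. It was 0.03 less the median of genes of like transcript length, and -0.21 over those whose mean CPM was 10 or more. FN1, the gene of fibronectin, which hepatocytes also secrete, had 598 and 419.9 CPM, and VIM had 109 and 107 CPM (interval -0.10 to 0.06). S100A4 had a log2 ratio of 0.11 (interval -0.14 to 0.38). SNAI1 and ZEB1, named after their values were seen because they bind the E-box, had 1.5 and 1.61 CPM and 4.58 and 5.19 CPM, with intervals of -0.58 to 0.79 and -0.20 to 0.56. Of 11 epithelial transcription and splicing factors, 4 were lower and 7 higher, with a median of 0.03. None was at least 20% lower, and KLF4, named after its values were seen, was at least 25% higher, at 1.5 and 2.25 CPM with an interval of -0.04 to 1.23. KLF5 was the most abundant with 133.7 and 133.97 CPM. Log2 ratios were -0.14 for ESRP2, -0.05 for TFAP2A, 0.03 for FOXA1 and 0.04 for TFAP2C and ELF3. The pseudogenes KRT8P3 and KRT8P12 had log2 ratios of -0.11 and -0.14, with intervals of -0.24 to 0.01 and -0.48 to 0.17.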
